A study of Danio rerio with 2 samples.

Results

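RNA levels of genes with known roles in glucocorticoid signalling are described here for the adult zebrafish forebrain choroid plexus. This is a folded epithelium with stroma and vessels that secretes into the ventricle. The genes are hsd11b2 for the cortisol-inactivating enzyme, nr3c1 and nr3c2 for the receptors, fkbp5 for a receptor co-chaperone, and the hormone-induced tsc22d3 and klf9. They were chosen by gene name for these roles, with their levels in these libraries already known, so the levels are a description and support no test. The 6 names matched 7 of 25432 gene entries, because the authors' table gives the name tsc22d3 to 2 entries that differ only in case. The study sequenced 2 libraries of whole tissue RNA, replicates 1 and 2, which the titles call batches, each from a pool of 12 to 19 dissected plexuses. Donors were untreated adults of AB and nacre (mitfa-/-) genotype, aged 6 to 8 months and over 3 cm long, and the pineal gland was taken off at dissection. Fish were killed by cold and the tissue went into RNAlater after dissection. Both libraries form 1 group with no control or hormone treatment, and the labels do not say which genotype or which of 2 RNA purification methods went into which library.

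Cortisol, the main corticosteroid of fish, acts through the glucocorticoid receptor encoded by nr3c1 and the mineralocorticoid receptor encoded by nr3c2, which enter the nucleus and bind DNA once they hold hormone. Teleosts make no aldosterone, so cortisol is a ligand of both receptors, and the enzyme encoded by hsd11b2 lowers it by oxidising it to inactive cortisone. In the cytosol the receptors are held by a chaperone complex with Hsp90, to which the FKBP co-chaperones bind, and genes such as fkbp5, tsc22d3 and klf9 are transcribed more when hormone is present. The libraries measure RNA only, and cortisol was not measured.

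Levels are given as TPM, reads per transcript length scaled to the same sum in each library. Replicate 1 held 11712489 expected counts and replicate 2 held 13446356. A gene was called detected where it reached 1 TPM in both libraries, and 10 or 100 TPM was likewise required of both. All 12 epithelial markers examined, clic6 and otx2b among them, were detected, beside 54.6% of all genes. Pineal markers were also present, and all 10 were at least 2-fold higher in replicate 1, beside 5.22% of all genes. Their summed TPM was 2383 in replicate 1 and 38.1 in replicate 2, and none was at 0. Erythrocyte markers summed to 1764 and 5923 TPM and neuron markers to 69.5 and 40.9 TPM in replicates 1 and 2. Of the neuron sums, map2 alone held 29.4 and 31.8 TPM. Among markers whose mean reached 1 TPM, 2 of 7 for neurons and 3 of 7 for radial glia were at least 2-fold higher in replicate 1. For both lists 0 were that much higher in replicate 2, beside 5.22% and 3.56% of all genes for the 2 directions. The radial glia markers nevertheless summed to 1453 and 1487 TPM in replicates 1 and 2. Most of this came from fabp7a, at 687 and 919 TPM, and s100b, at 658 and 506 TPM. Where a gene is lower in one of these libraries, fewer cells of a type and less RNA per cell cannot be told apart.

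The inactivating enzyme gene hsd11b2 (ENSDARG00000001975) was among the most abundant transcripts of the tissue. It stood at 2182 TPM in replicate 1 and 1639 TPM in replicate 2, a mean of 1910.5 ± 384 (SD, n = 2). It ranked number 80 and number 107 of all genes, and it alone held 0.218% and 0.164% of all TPM. The level rested on 45409 and 42717 expected counts, with exact 95% Poisson intervals of 2162 to 2202 TPM and 1624 to 1655 TPM. All intervals cover counting error only, not the spread between pools, and no molecular identifiers are known for these reads.

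Other genes grouped here with cortisol conversion were far below hsd11b2. The gene hsd20b2, whose zebrafish product reduces cortisone further to 20-beta-hydroxycortisone, was at 9.21 and 15.7 TPM, and hsd11b2 was 237-fold and 104-fold above it in replicates 1 and 2. The genes hsd11b1la and hsd11b1lb are named for likeness to the mammalian type 1 enzyme that regenerates cortisol. Whether their zebrafish products do so is not shown here, so their ratios to hsd11b2 compare RNA levels only. They were at 5.06 and 3.48 TPM and at 0.77 and 0.93 TPM. The level of hsd11b2 was 431-fold and 471-fold that of hsd11b1la. For hsd11b1lb, with 4 and 6 expected counts, the ratio was 2834 with a counting interval of 1107 to 10400.1 in replicate 1, and 1763 with an interval of 809.7 to 4803 in replicate 2. The gene h6pd, whose product supplies the mammalian type 1 enzyme with NADPH, was at 5.66 and 4.39 TPM.

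Of 15 matched genes of cortisol inactivation and conversion, 13 were detected and 6 reached 10 TPM, beside 54.6% and 26.3% of all genes. After hsd11b2, the highest were sult2st3, a cytosolic sulfotransferase gene, at 238 and 206 TPM, hsd3b7, of bile acid synthesis in mammals, at 28.5 and 44.9 TPM, and hsd17b12a, of fatty acid elongation in mammals, at 37.1 and 26.4 TPM. The roles named here for hsd3b7 and hsd17b12a lie outside cortisol conversion. Both are among the 6 that reached 10 TPM, while hsd20b2 missed that level at 9.21 TPM in replicate 1. The counts for this list are therefore not counts of cortisol-converting genes alone. The genes named for steroid 5-alpha reductase, srd5a3, srd5a2b, srd5a1 and srd5a2a, were at 22.1 ± 2.04, 8.71 ± 1.09, 2.23 ± 0.099 and 0.73 ± 0.099 TPM (SD, n = 2).

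Both receptor genes were transcribed, with the glucocorticoid receptor gene above the mineralocorticoid receptor gene. The gene nr3c1 (ENSDARG00000025032) stood at 31.4 TPM in replicate 1 and 21.95 in replicate 2, a mean of 26.7 ± 6.68 (SD, n = 2), from 919 and 777 expected counts. The gene nr3c2 (ENSDARG00000102082) stood at 8.44 and 5.31 TPM, a mean of 6.88 ± 2.21 (SD, n = 2), from 201 and 155 expected counts. In replicates 1 and 2, 87.5% and 84.9% of all genes were below nr3c1, and 65.7% and 62.5% were below nr3c2. All genes here include 4402 at 0 TPM in both libraries. The gene nr3c2 ranked number 8709 and number 9540, where 13897 genes were detected.

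Within a library, nr3c1 was 3.72-fold above nr3c2 in replicate 1 (95% counting interval 3.19 to 4.35) and 4.13-fold above it in replicate 2 (3.47 to 4.94). Both genes were lower in replicate 2, and the log2 ratio between them was 1.97 ± 0.11 (SD, n = 2). Per transcript length, hsd11b2 was 259-fold and 309-fold above nr3c2 and 69.5-fold and 74.7-fold above nr3c1. The values for nr3c1 are sums over 4 annotated transcripts and those for nr3c2 over 3. Single transcripts of either gene were not analysed here.

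Among 10 genes of steroid receptors and steroid-binding membrane proteins, 9 were detected, beside 54.6% of all genes. The 9 include nr3c1 and nr3c2, which were chosen with their levels already known. The progesterone receptor membrane component genes pgrmc1 and pgrmc2 were at 178 ± 21.2 and 29.7 ± 3.71 TPM, and the estrogen receptor gene esr2b was at 28.3 ± 6.58 TPM, close to nr3c1 in both libraries. The androgen receptor gene ar was at 10.9 and 8.21 TPM, with nr3c1 2.89-fold and 2.67-fold above it and nr3c2 below it at 0.776 and 0.647 of its level. The nuclear progesterone receptor gene pgr was at 8.48 and 2.75 TPM, and esr1 was at 3.60 and 8.56 TPM. Each passed 2-fold between the libraries, in opposite directions. These are 2 of the 9 genes compared (22.2%), beside 8.77% of all genes.

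The co-chaperone gene fkbp5 (ENSDARG00000028396) was as abundant as hsd11b2. Its product, FKBP51, binds the Hsp90 complex and lowers the receptor's affinity for hormone in mammals, which closes a feedback loop since the gene is itself induced by hormone. It stood at 1924 TPM in replicate 1 and 1947 in replicate 2, a mean of 1936 ± 16.3 (SD, n = 2), at rank 95 and rank 100 of all genes. The 95% Poisson intervals, 1905 to 1943 and 1930.2 to 1964 TPM, overlapped. This nearness holds for TPM as deposited, with a log2 ratio of 0.02 of replicate 2 over replicate 1, while the 6 other scalings gave 0.21 to 0.34 toward replicate 2.

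The related co-chaperone gene fkbp4, whose product FKBP52 favours hormone binding in mammals, stood at 94.0 and 101 TPM. The gene fkbp5 was 20.5-fold above it in replicate 1 (95% counting interval 19.5 to 21.5) and 19.3-fold in replicate 2 (18.5 to 20.2). Of the 17 matched genes of the wider FKBP family of prolyl isomerases, fkbp5 was the highest in both libraries, and the next, fkbp1aa, was at 286 and 303 TPM, 6.73-fold and 6.42-fold lower. The gene fkbp1b was at 96.6 ± 27.0 TPM, and 14 of the 17 were detected, beside 54.6% of all genes.

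Of 20 genes of the receptor chaperone complex, 19 were detected and as many reached 10 TPM, beside 54.6% and 26.3% of all genes. The Hsp90 gene hsp90ab1 was at 2176 and 2633 TPM, the Hsc70 gene hspa8 at 767 and 949 TPM, and the p23 gene ptges3a at 247 and 236 TPM. With fkbp5 these are the 4 most abundant genes of the list, which has a median of 43.5 TPM beside 2.52 TPM for all genes. The genes of other steps were lower, with st13 at 117 and 191, stip1, the adaptor between Hsp70 and Hsp90, at 34.3 and 40.8, and the cyclophilin gene ppid at 24.3 and 21.2 TPM. Another Hsp90 gene, hsp90aa1.1, was near 0, at 0.11 and 0.13 TPM from 2 and 3 expected counts. Its paralogue hsp90aa1.2 was at 93.3 and 74.1 TPM. Chaperones of this list serve many client proteins besides steroid receptors.

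Receptor coregulators were transcribed at moderate levels. All 20 matched genes were detected and 11 reached 10 TPM, beside 54.6% and 26.3% of all genes. Their median was 12.5 TPM, beside 2.52 TPM for all genes. The corepressor gene ncor1 was at 52.8 and 38.9 TPM, the chromatin remodeller gene smarca4a at 42.3 and 34.8, and tbl1xr1a, which encodes a subunit of a corepressor complex, at 33.0 and 21.9 TPM. The p160 coactivator genes ncoa2, ncoa3 and ncoa1 were at 15.8 ± 2.09, 8.09 ± 2.70 and 6.25 ± 1.51 TPM.

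The gene tsc22d3 (ENSDARG00000075666) encodes the leucine zipper protein GILZ, which carries part of the anti-inflammatory action of glucocorticoids in mammals. It stood at 595 TPM in replicate 1 and 434 in replicate 2, a mean of 515 ± 114 (SD, n = 2), at rank 197 and rank 240 of all genes. The second entry of that name, written TSC22D3 by the authors (ENSDARG00000105498) but under a clone-based symbol in the reference table, stood at 33.0 and 32.0 TPM. The first entry was 18.1-fold and 13.5-fold above the second, and it held 94.8% and 93.1% of their summed TPM of 628 and 466. By expected counts, not divided by length, it was 51.8-fold and 39.3-fold above the second.

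The expected counts of both entries were not whole, at 7561.55 and 146.21 in replicate 1 and 6881.98 and 175.27 in replicate 2. This occurs when RSEM divides reads that align to more than 1 gene, so both levels are uncertain. Their sums, 7707.76 and 7057.25, were not whole either, so the division was not only between these 2 entries. Whether the 2 entries share reads with each other is not shown. All other members had whole counts. The relatives tsc22d1 and tsc22d2 were at 129 and 94.2 TPM and at 24.7 and 28.5 TPM, and the first tsc22d3 entry was 4.62-fold and 4.61-fold above tsc22d1.

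The gene klf9 (ENSDARG00000068194) encodes a zinc finger transcription factor that is a direct target of the glucocorticoid receptor in zebrafish and mammals. It stood at 107 TPM in replicate 1 and 72.2 in replicate 2, a mean of 89.5 ± 24.6 (SD, n = 2), from 1144 and 963 expected counts. Per transcript length it had the highest level of the 20 matched KLF genes in both libraries. The closest relatives in level were klf13 at 74.5 and 48.2 TPM, klf11b at 65.9 and 52.5, and klf11a at 46.9 and 45.0 TPM. The level of klf9 was 1.43-fold that of klf13 in replicate 1 (95% counting interval 1.33 to 1.55) and 1.50-fold in replicate 2 (1.37 to 1.63). By expected counts, not divided by length, klf9 was below klf13, at 0.751 and 0.78 of it. Of the 20 KLF genes, 15 were detected and 7 reached 10 TPM, beside 54.6% and 26.3% of all genes.

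**Figure D1:**
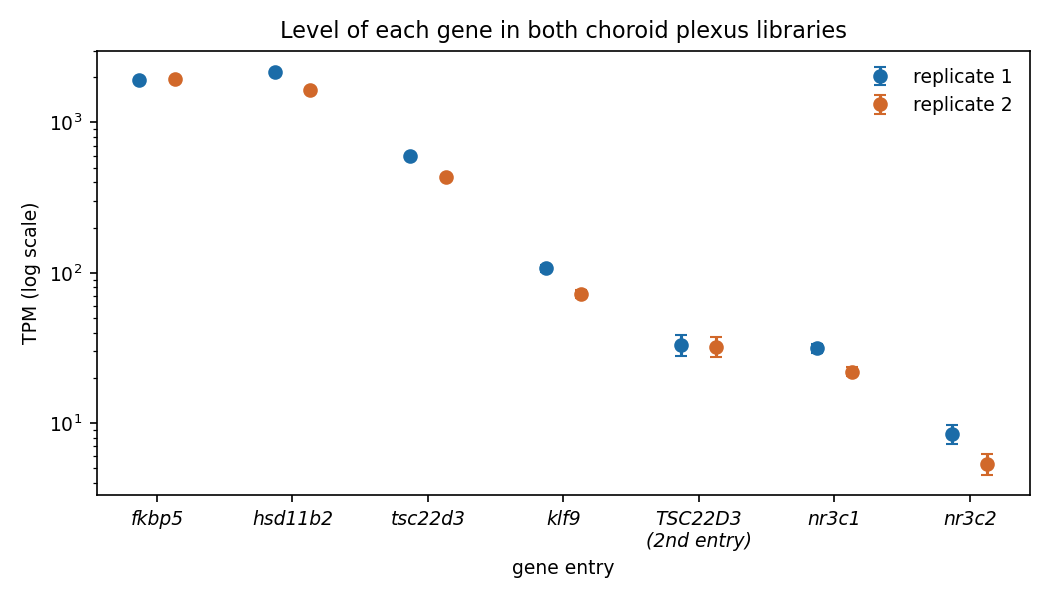
TPM of each of the 7 gene entries on a log axis, by library, with exact 95% Poisson intervals (counting error only; smaller than the points for the abundant genes). fkbp5 and hsd11b2 lie together at the top, from 1639 to 2182 TPM, and nr3c2 is lowest at 8.44 and 5.31.

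By mean level the order was fkbp5, hsd11b2, tsc22d3, klf9, the second tsc22d3 entry, nr3c1 and nr3c2. The first pair could not be ordered, since fkbp5 stood at 0.882 of hsd11b2 in replicate 1 and at 1.19 times it in replicate 2. The next steps, from hsd11b2 to tsc22d3 with a ratio of means of 3.71, from tsc22d3 to klf9 with 5.75 and from klf9 to the second tsc22d3 entry with 2.76, were each larger than the spread between the libraries. The second tsc22d3 entry and nr3c1 lay close. In replicate 1 their 95% Poisson intervals, 27.8 to 38.8 and 29.4 to 33.5 TPM, overlapped, while in replicate 2 those of 27.5 to 37.2 and 20.4 to 23.5 TPM did not. The counts of the second entry were not whole, and error from dividing shared reads is outside these intervals. They therefore do not settle the order of this pair. From nr3c1 to nr3c2 the ratio of means was 3.88, and the libraries' ranges were again apart. The target genes tsc22d3 and klf9 kept a ratio of 5.57 and 6.01 to each other, a log2 ratio of 2.53 ± 0.08 (SD, n = 2).

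As a scale for these levels, the 2 genes with formal names nearest to each entry on the log2(TPM + 1) scale over both libraries were taken. For fkbp5 these were igfbp2a, an insulin-like growth factor carrier gene, at 1902 and 1932 TPM, and rpl37, a ribosomal protein gene, at 1791 and 2079 TPM. For hsd11b2 they were fkbp5 and igfbp2a. For tsc22d3 they were mstnb (563 and 454 TPM) and rpl38 (547 and 461), and for klf9 safb (106 and 69.6) and crip1 (107 and 69.2). Those of nr3c1 were pds5b and ddx23, those of nr3c2 smpd4 and yy1b, and those of the second tsc22d3 entry rgmd and alkbh5. With 2 libraries of 1 tissue, such nearness is a matter of level only.

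The wider list of genes that glucocorticoids induce or regulate in mammals or fish was described by the same thresholds. Of 50 matched targets, 41 were detected (82.0%), 28 reached 10 TPM (56.0%) and 10 reached 100 TPM (20.0%), beside 54.6%, 26.3% and 3.12% of all genes. The median was 16.2 TPM, beside 2.52 TPM for all genes. Without fkbp5, tsc22d3 and klf9, 38 of 47 were detected and 25 reached 10 TPM, with a median of 13.8 TPM. In this list fkbp5 was highest, tsc22d3 with both entries summed was at place 4 after the glutamine synthetase genes glulb (1135 and 937 TPM) and glula (905 and 1001), and klf9 was at place 13. Most of these genes also answer to other signals, and the list was not tested against others.

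Several well-known targets lay below tsc22d3. The metallothionein gene mt2 was at 330.2 and 307 TPM, nfkbiab, which encodes an inhibitor of NF-kappaB, at 318 and 218, and the kinase gene sgk1 at 226 and 197 TPM. The cytokine signalling inhibitor gene socs3a was at 215 and 120 TPM and the transcription factor gene cebpd at 149 and 63.9 TPM. The phosphatase gene dusp1 was at 49.4 and 59.4 TPM and zbtb16a at 51.0 and 38.5. The clock genes per1b and per1a were at 10.1 ± 1.80 and 2.82 ± 0.792 TPM.

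The other 9 target genes missed 1 TPM in at least 1 library. The lowest 6 by mean level were pck2, pck1, vipr2, tfcp2l1, tat and trim63a. The gluconeogenesis genes pck1 and pck2 were at 0.55 and 0.04 TPM and at 0.67 and 0.48 TPM, and the tyrosine aminotransferase gene tat was at 0.41 TPM in replicate 1 and had no reads in replicate 2. The receptor gene vipr2 was at 0.19 and 0.39 TPM, and the transcription factor gene tfcp2l1 was at 0.50 TPM in replicate 1 and had no reads in replicate 2. The muscle ubiquitin ligase gene trim63a had no reads in either library, where a count of 3 corresponds to 0.256 and 0.223 CPM, counts scaled to the library total. Another muscle ubiquitin ligase gene, fbxo32, was detected at 3.98 and 3.03 TPM, and igfbp1a, an insulin-like growth factor carrier gene, at 7.54 and 12.9 TPM.

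**Figure D2:**
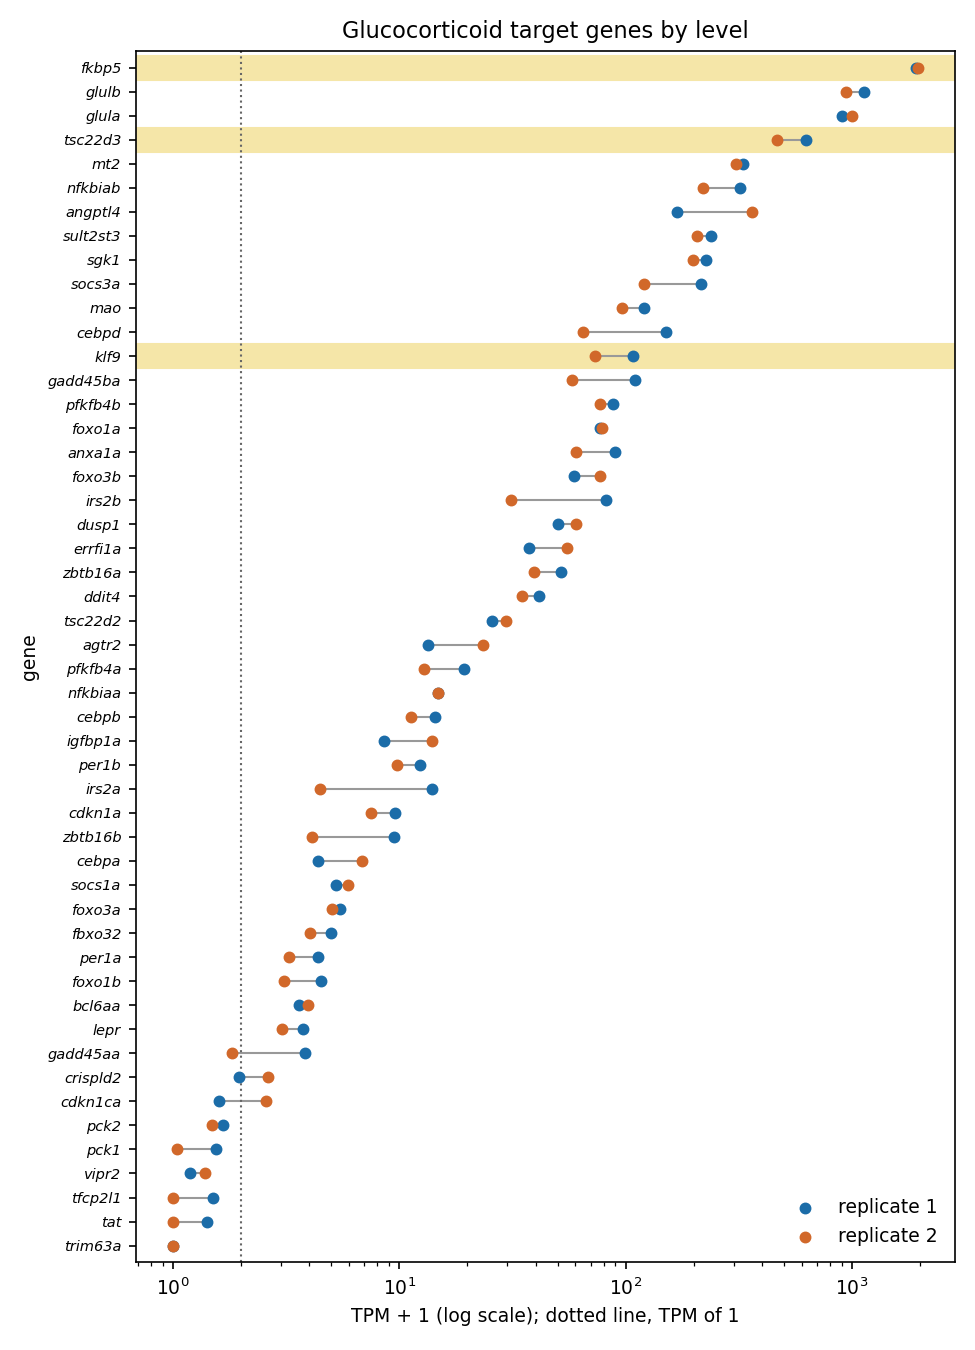
Matched glucocorticoid target genes ordered by mean level, with TPM + 1 on a log axis and one point per library joined by a line; both entries of tsc22d3 are summed. Shaded rows are fkbp5, tsc22d3 and klf9. In both libraries 41 of the 50 genes reach 1 TPM (dotted line), beside 54.6% of all genes.

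The list of the mineralocorticoid receptor pathway and of ion transport that mineralocorticoids regulate in mammals held 18 matched genes. Of these, 14 were detected (77.8%) and 10 reached 10 TPM (55.6%), beside 54.6% and 26.3% of all genes. The list includes hsd11b2 and nr3c2, which were chosen with their levels already known. It also holds atp1b1a and slc12a2, which are among the epithelial markers examined. Its shares are therefore a description and say nothing of the activity of the receptor pathway. Below hsd11b2 came the sodium pump subunit genes atp1b1a at 949 and 1520 TPM and atp1a1a.1 at 678 and 1058, and the pump regulator gene fxyd1 at 731 and 493 TPM. The deubiquitinase gene usp2a was at 505 and 521 TPM, and the ubiquitin ligase gene nedd4l, whose product is inhibited by the sgk1 kinase in mammals, at 30.5 and 17.7 TPM. The cotransporter gene slc12a2 was at 70.7 and 75.9 TPM, while slc12a3, the thiazide-sensitive cotransporter gene, was near 0 at 0.91 and 0.03 TPM. These carriers are transcribed in many ion-transporting epithelia, and hsd11b2 was above all of them in both libraries.

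**Figure D3:**
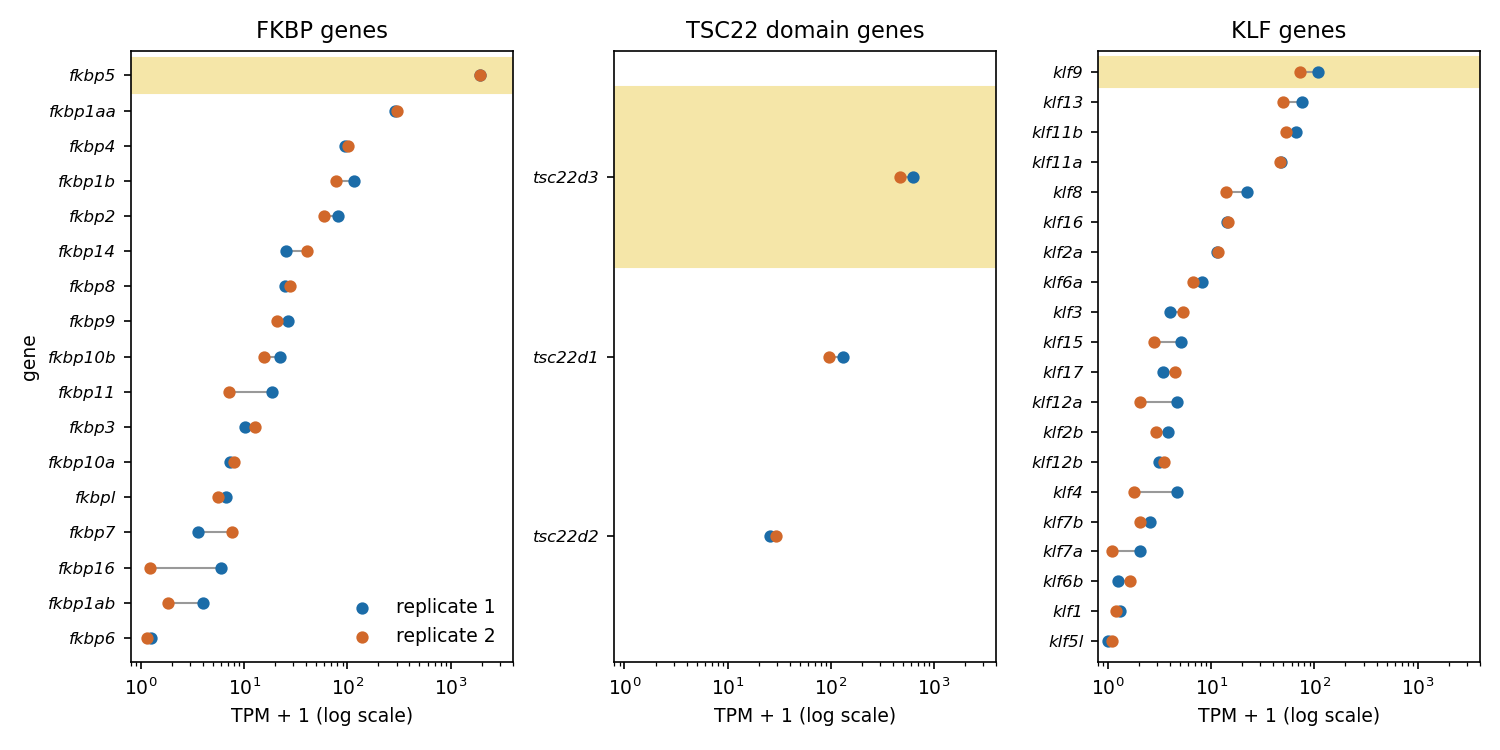
TPM + 1 on log axes for the FKBP, TSC22 domain and KLF genes, with one point per library joined by a line and both entries of tsc22d3 summed. fkbp5, tsc22d3 and klf9, shaded, are each per length the highest of their 17, 3 and 20 matched family members in both libraries.

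None of the 7 entries differed 2-fold between the libraries, beside 8.77% of the 15125 genes whose mean reached 1 TPM. The comparison used the log2 ratio of TPM + 1, replicate 2 over replicate 1, less the median of all these genes, which was -0.25. With 2 libraries no test of the difference could be made. The ratio was -0.16 for hsd11b2, -0.20 for tsc22d3, -0.24 for nr3c1, -0.31 for klf9 and -0.33 for nr3c2, all toward replicate 1. It was 0.27 for fkbp5 and 0.21 for the second tsc22d3 entry, toward replicate 2. Without removal of the median these were 0.02 and -0.04, so the direction of the second tsc22d3 entry depended on the scaling. Of 7492 genes whose mean reached 10 TPM, 43.8% had a larger ratio than klf9 in either direction and 49.3% a larger one than fkbp5.

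In TPM as deposited, replicate 1 was above replicate 2 by 1.33-fold for hsd11b2, 1.37-fold for tsc22d3, 1.43-fold for nr3c1, 1.48-fold for klf9 and 1.59-fold for nr3c2. Pineal markers were higher in the same library and erythrocyte markers in the other, and ribosomal protein and mitochondrially encoded genes held 28.4% and 35.4% of all TPM in replicates 1 and 2. The part of these differences in the member ratios was not tested.

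Among the target genes whose mean reached 1 TPM, 4 of 44 differed at least 2-fold, or 9.09%, a share near that of all genes. The lipase inhibitor gene angptl4, at 168 and 359 TPM, and the angiotensin receptor gene agtr2, at 12.4 and 22.5 TPM, were higher in replicate 2, beside 3.56% of all genes. The insulin receptor substrate genes irs2b, at 80.7 and 30.1 TPM, and irs2a, at 12.9 and 3.48 TPM, were higher in replicate 1, beside 5.22% of all genes. These 4 genes are the whole count and were named after their values were seen.

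This split depended on the median that was removed. In TPM + 1 without its removal, 6 of the 44 genes, or 13.6%, passed 2-fold, beside 11.3% of all genes. Of these, cebpd, zbtb16b, gadd45aa, irs2a and irs2b, 5 in all, were higher in replicate 1, beside 9.05% of all genes. Only angptl4 was then higher in replicate 2, beside 2.25% of all genes, and agtr2 no longer passed. None of the 19 chaperone genes at that level passed 2-fold on either scale. Of the 20 coregulator genes only kmt2d passed, at 29.97 and 12.8 TPM, without removal of the median. On both scales 2 of 9 steroid receptor genes (22.2%) and 1 of 13 conversion genes (7.69%) passed. Of 16 FKBP genes, 3 passed with the median removed (18.75%) and 4 without (25%). Of 16 KLF genes, 1 passed with the median removed (6.25%) and 2 without (12.5%). All genes gave 8.77% and 11.3% on these scales.

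**Figure D4:**
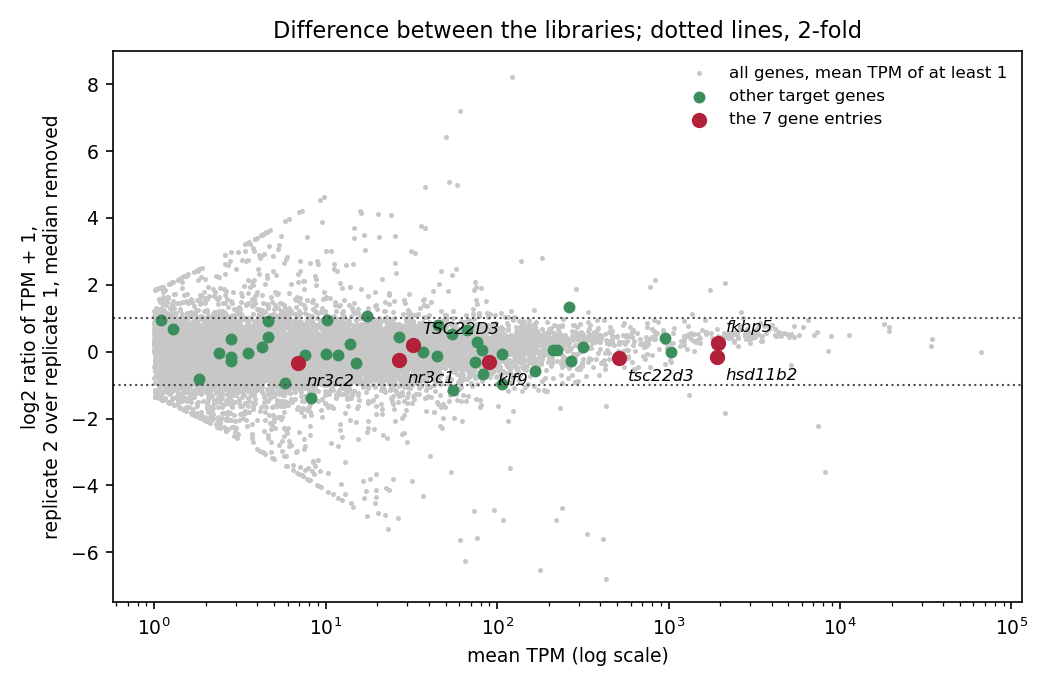
Log2 ratio of TPM + 1, replicate 2 over replicate 1 with the median removed, against mean TPM on a log axis, for the 15125 genes whose mean reached 1 TPM (grey), the other target genes (green) and the 7 entries (red). The 7 entries lie between -0.33 and 0.27, inside the dotted 2-fold lines.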

How the data were processed

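RNA-seq of 2 libraries of adult zebrafish forebrain choroid plexus was used. The submitters' processing notes name STAR, RSEM 1.3.3 and build GRCz11. Neither the annotation nor a STAR version is given in the sources used here. For each library the authors deposited expected counts, transcript lengths and TPM per gene, per the file headers. Their series table gave gene names. Its deposited TPM lay within 0.005 of the mean over the libraries. A reference table of symbols named further genes. No coordinates or sequences are given, as no genome of this build was used.

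The members and lists were chosen with earlier results of these data known. List symbols were matched by name, then through RefSeq synonyms (GRCz12tu), and entries sharing a symbol were summed. Unmatched symbols were left out. Text names all members, the top 4 of each list, genes with a direct role or near 0, and the 2 nearest in level. One coregulator gene is not reported here. Other genes were named after their values were seen.

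Means carry the SD of 2 libraries, which the titles call batches. Whether they are biological replicates beyond separate pools is not stated. There is 1 group, so no test was run. Intervals are exact Poisson or, for ratios, exact binomial (scipy 1.17.1), covering counting error only. TMM sizes came from edgeR 4.0.16 on expected counts rounded to whole numbers. The ratio was tested on simulated data. Alternatives were other scalings, pseudocounts, filters and thresholds, and each library alone.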

Additional observations from a re-analysis of the deposited data

How the results depend on the processing

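When TPM were rescaled without mitochondrially encoded and ribosomal protein genes, mean levels in TPM were 2852 for fkbp5, 2794 for hsd11b2, 752 for tsc22d3, 131 for klf9, 47.8 for the second tsc22d3 entry, 38.9 for nr3c1 and 10.0 for nr3c2. This follows from the smaller total. The ratio of the libraries then also changed, with an SD of 231 for fkbp5. With expected counts not divided by length, the log2 ratio was 2.26 for nr3c1 over nr3c2, 4.62 for fkbp5 over fkbp4 and 2.78 for tsc22d3 over klf9. By such counts hsd11b2 was 811-fold and 890-fold above hsd11b1la, 11352-fold and 7120-fold above hsd11b1lb, and fkbp5 27.9-fold and 27.3-fold above fkbp1aa, while klf9 was below klf13. Summing both tsc22d3 entries gave 547 ± 115 TPM, an alternative chosen after seeing the data. At a TPM of at least 10, 4 steroid receptor genes, 6 conversion genes and 11 coregulator genes were counted, beside 26.3% of all genes. Leaving out 1 library gave the other's values, which with 2 libraries says nothing of stability, and fkbp5 over hsd11b2 ran from -0.18 to 0.25 on the log2 scale. No member passed 2-fold under any of the 6 other settings for the ratio, which could not be computed from 1 library. No paired analysis was possible because there is only 1 group. Without removal of the median, 5 target genes were at least 2-fold higher in replicate 1 and 1 in replicate 2, an alternative added after seeing the data. Detection at 0.5 TPM or at 10 expected counts kept the number of detected genes in every list within 1.5 times. At this depth, genes under 10 counts are known only roughly.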

Other observations

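Genes of the stress axis upstream of cortisol were mostly at or near 0. Of 14 matched genes of its hormones, receptors and carriers, 3 were detected, beside 54.6% of all genes, and 5 had no reads. The binding protein gene crhbp was highest at 85.5 and 74.9 TPM, and the entries of the receptor gene crhr2 summed to 16.8 and 13.2 TPM, of which an entry written CRHR2 held 14.0 and 10.7. The receptor gene crhr1 was at 0.75 and 0.73 TPM and the orphan receptor gene nr0b1 at 3.19 and 1.65. The hormone gene crhb had 6 expected counts in replicate 1 and none in replicate 2, and crha, pomca and pomcb had none in either. Of 14 matched genes of corticosteroid synthesis, 4 were detected, beside 54.6% of all genes. These were fdx1 (78.3 and 55.3 TPM), tspo (41.3 and 61.3), hsd3b1 (50.0 and 43.3) and fdxr (12.2 and 6.24). They also serve other mitochondrial or steroid pathways. The gene cyp17a1 lay just below detection, at 0.93 and 0.92 TPM from 21 and 26 expected counts. The genes star, cyp11c1 and mc2r had 1, 5 and 2 expected counts in replicate 1 and none in replicate 2, and cyp21a2 had none in either.

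Of 10 carrier genes whose relatives move steroids or steroid conjugates in mammals, 7 were detected, beside 54.6% of all genes. They were led by abcc1 at 57.4 and 34.3 TPM, slco1d1 at 34.9 and 39.7, slco2b1 at 28.4 and 26.1 and abcg2a at 18.6 and 22.5. The efflux pump genes abcb4 and abcb5 were at 8.94 ± 0.849 and 0.44 ± 0.141 TPM.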
